A study of Mus musculus with 6 samples.

Results

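Transcripts of 10 genes that switch off MAP kinase signalling were examined in cultured mouse group 2 innate lymphoid cells (ILC2s) given toyocamycin or its vehicle. The genes were taken by symbol from a table of 25865 genes, and all 10 are in it: 7 MAP kinase phosphatases (Dusp1, Dusp2, Dusp4, Dusp5, Dusp6, Dusp10 and Dusp16) and 3 inhibitors of the RAS-ERK pathway (Spry1, Spry2 and Spred1). In both groups the ILC2s had been sorted from large intestines of C57BL/6 animals and kept for 5 days in IMDM that held 10 ng/mL each of the cytokines IL-33, IL-25, IL-7 and IL-2. The Control group (3 samples) received vehicle and the Toyocamycin group (3 samples) received toyocamycin for 16 h. Toyocamycin is an adenosine analogue that inhibits ribosomal RNA processing and blocks IRE1, a sensor of unfolded proteins that cleaves RNA; the labels name no dose. No source says whether the replicates are separate cultures or mice, and the p-values therefore describe the scatter among these 6 samples, part or all of which could be technical.

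MAP kinases (ERK, JNK and p38) carry signals from growth factor, cytokine and stress receptors, and are active only while a threonine and a tyrosine in their activation loop are phosphorylated. Dual-specificity phosphatases remove both phosphates, and many of their genes are themselves induced by the kinases, so that they act as negative feedback. Sprouty and Spred proteins act further up, between receptor, RAS and RAF. In ILC2s, IL-33 signals through MyD88 to NF-kB and MAP kinases, and p38 activity supports production of IL-5 and IL-13.

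Values are normalised read counts, that is reads per gene divided by a size factor for each sample, from 22.3 M to 36.7 M reads per sample. The 10 genes had between 29 and 14672 reads in a sample. All 12 ILC2 markers examined averaged at least 20 normalised read counts, with Il1rl1, which encodes the IL-33 receptor, at 104886 ± 2034 in Control (SD, n = 3). Of 8 T cell markers, Lat, Cd3g and Cd3e averaged at least 20 over the 6 samples and Cd8a, Cd8b1 and Cd5 under 3, and 0 of 6 mast cell markers averaged 20. Some marker sums of other cell types moved with the groups: T cell markers summed to 2053 to 2577 in Control and 1225 to 1475 in Toyocamycin, most of it from Lat (2140 ± 254 and 1152 ± 107). Single T cell genes went both ways: Cd3e was lower (35.2 ± 0.778 and 6.13 ± 3.25) and Cd3g higher (148.7 ± 13.6 and 198.7 ± 31.4). Fibroblast and endothelial markers, mostly Pecam1 (1012 ± 39.7 and 565 ± 40.5), summed to 1271 to 1439 and 709 to 967. Col1a2 of that list was lower too (115.5 ± 10.5 and 58.1 ± 8.61), while Col1a1, Pdgfra, Cdh5 and Dcn overlapped between the groups. NK cell and ILC1 markers, nearly all Gzma, summed to 7256 to 7651 and 9534 to 10890, although Prf1 of that list was lower (193.6 ± 35.5 and 36.9 ± 6.29). B and plasma cell markers, mostly Cd79b, summed to 365.1 to 469.6 and 187.2 to 220.5. The ILC2 markers themselves summed to 493996 to 505014 and 379366 to 411794, and single ILC2 genes went both ways. Il13 (88695 ± 3296 and 12757 ± 1184), Il2ra, Il5, Il7r, Klrg1, Id2 and Il17rb were lower. Rora (1414 ± 117 and 18477 ± 711), Gata3 (32470 ± 676 and 65663 ± 5333), Ptprc and Il1rl1 were higher, and Thy1 did not pass. The part of cells of other types in the results was not tested. In bulk RNA, fewer cells of a type and less RNA per cell cannot be told apart.

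The set split by gene rather than moving as a block. Dusp4, Dusp16, Dusp5, Spry2, Dusp10 and Spred1 rose with toyocamycin, by 2.64-fold to 4.67-fold, and Dusp1, Dusp2, Spry1 and Dusp6 fell, by 1.15-fold to 4.93-fold. All 10 passed at an adjusted p under 0.05 (limma, Benjamini-Hochberg over 16223 genes), where 65.9% of all genes tested did. By direction, 6 of 10 were higher (32.8% of all genes) and 4 of 10 lower (33.1% of all genes). All but Dusp6 also passed a log2 change of 1 in size, 9 of 10 against 37.5% of all genes: 6 were higher (17.0% of all genes) and 3 lower (20.5%). The Control and Toyocamycin samples did not overlap in any of the 10 genes, as in 69.1% of all genes. The median log2 change was 1.43, beside −0.03 over all genes; the median size of the change, whatever its sign, was 1.63 beside 0.87.

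**Figure D1:**
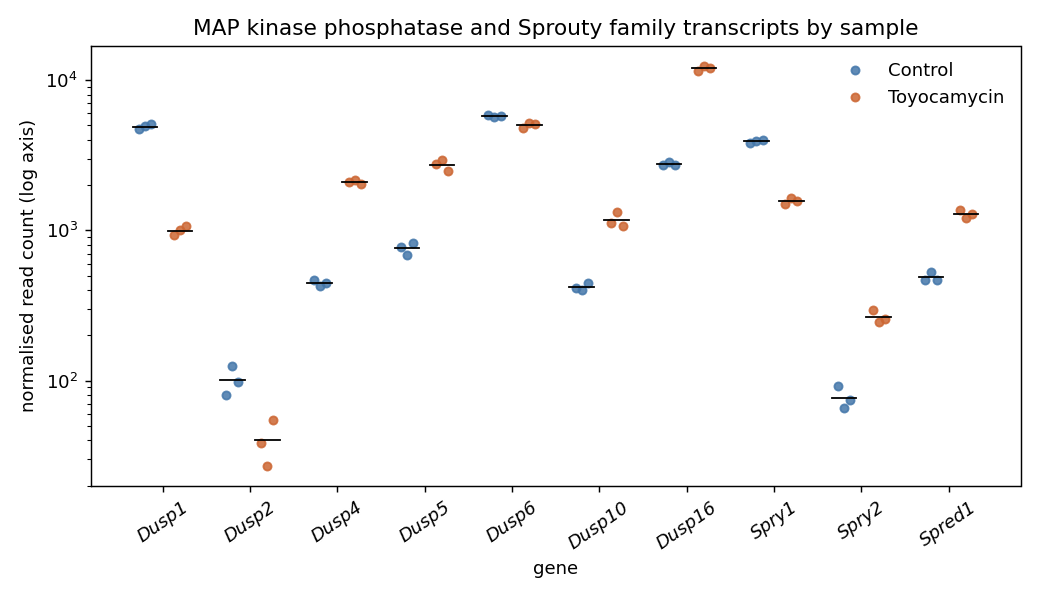
Normalised read count (log axis) of each gene in the 3 Control and 3 Toyocamycin samples. Points are samples and black bars are group means. The groups are separate for all 10 genes, and the gap is narrowest for Dusp6, at 5764 in Control and 5025 in Toyocamycin.

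Dusp1, Dusp2, Dusp4 and Dusp5 encode the nuclear phosphatases, most of which are early response genes. Dusp1, which dephosphorylates p38, JNK and ERK and restrains inflammatory cytokine production in macrophages, lies on chromosome 17 (26505591 to 26508472, minus strand, mm10). It had 4692, 4954 and 5083 normalised read counts in the Control samples and 925.8, 998.5 and 1064 in the Toyocamycin samples. Every Toyocamycin sample was thus far below every Control sample. The mean fell 4.93-fold, from 4910 ± 200 to 996 ± 69 (SD, n = 3), with a log2 change of −2.30 (SE 0.064, adjusted p = 1.32e-17). Only 5.33% of the genes tested had a more negative change.

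Dusp2 (chromosome 2, 127336159 to 127338377, plus strand), a phosphatase found mainly in leukocytes, was among the least abundant of the set. Its Control values were 79.7, 124.6 and 98.3 and its Toyocamycin values 38.3, 27.1 and 54.6, from 29 to 45 reads per sample in the latter. The groups did not overlap, but the spread within each was wide next to the difference. The log2 change of −1.34 had a 95% interval of −1.98 to −0.71 (SE 0.30, adjusted p = 0.000506), the widest of the 10 genes.

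Dusp4 (chromosome 8, 34807610 to 34819894, plus strand) acts on ERK and JNK, and moved the other way. Its Control values of 467.5, 426.5 and 449.4 compare with 2084, 2166 and 2022 in Toyocamycin. It had the largest rise of the set, 4.67-fold (log2 change 2.22, SE 0.074, adjusted p = 1.89e-16), above that of 96.7% of the genes tested. The ratio of Dusp1 to Dusp4 reads was 10.0, 11.6 and 11.3 in the Control samples and 0.444, 0.461 and 0.526 in the Toyocamycin samples. Such a ratio within a sample does not depend on how samples are scaled, and it fell 23.0-fold; this pair and the other ratios given here were chosen after the values were seen.

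Dusp5 (chromosome 19, 53529145 to 53541809, plus strand), the nuclear phosphatase that is selective for ERK, had 774.7, 683.7 and 827.6 in Control. It reached 2759, 2930 and 2470 in Toyocamycin, a rise of 3.57-fold with no overlap of the groups (log2 change 1.84, SE 0.079, adjusted p = 1.21e-14). An annotated antisense RNA covers 22.1% of the exonic bases of Dusp5. The sources used here do not give the strand setting of the counting, so reads of this RNA and of Dusp5 cannot be told apart.

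Dusp6 (chromosome 10, 99263231 to 99267489, plus strand) encodes the cytoplasmic ERK phosphatase, a classical target of ERK signalling. It had the most reads of the set in Control, at 5840, 5716 and 5737, and 4795, 5153 and 5126 in Toyocamycin. The samples were separate, yet the change was small: a log2 change of −0.20 with a 95% interval of −0.31 to −0.09 (SE 0.051, adjusted p = 0.00171). Its size depended on the scaling. With samples set to equal totals the log2 change was −0.55, with quantile normalization −0.68, and after correction for GC content and length −0.083, with which it no longer passed (adjusted p = 0.0957; the alternatives ran from 2.41e-09 to 0.0957). Its cytoplasmic relative Dusp7, which also acts on ERK, rose 1.75-fold from 1066 ± 97.6 to 1862 ± 131 (adjusted p = 5.39e-09), and the ratio of Dusp6 to Dusp7 reads fell from 5.44 ± 0.553 to 2.71 ± 0.279.

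Dusp10 and Dusp16 encode the phosphatases that act on JNK and p38 more than on ERK, and both rose. Dusp16 (chromosome 6, 134715468 to 134807063, minus strand) had 2702, 2865 and 2730 in Control and 11571, 12426 and 11968 in Toyocamycin. With a rise of 4.33-fold it was the member with the smallest adjusted p (log2 change 2.12, SE 0.051, adjusted p = 2.44e-18). Dusp10 (chromosome 1, 184034381 to 184075636, plus strand) had 415.9, 398.4 and 445.9 in Control and 1115, 1320 and 1066 in Toyocamycin. It rose 2.78-fold (log2 change 1.47, SE 0.093, adjusted p = 7.22e-12), with Toyocamycin replicate 2 somewhat above the other two. The ratio of Dusp1 to Dusp16 reads turned over, from 1.78 ± 0.0745 to 0.0831 ± 0.00502.

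The promoters of Dusp1, which fell, and of Dusp5, which rose, are shown because they hold matches to motifs of signal-induced transcription factors. Each is the 250 bases before the gene's start from RefSeq (GRCm38.p6), 5′ to 3′ on the gene's strand: chr17:26508473-26508722 (minus) and chr19:53528895-53529144 (plus). Capitals mark the cyclic AMP response element TGACGTCA, its shorter form TGACG and the E-box CACGTG, each on either strand, and the CArG box bound by serum response factor.
Dusp1: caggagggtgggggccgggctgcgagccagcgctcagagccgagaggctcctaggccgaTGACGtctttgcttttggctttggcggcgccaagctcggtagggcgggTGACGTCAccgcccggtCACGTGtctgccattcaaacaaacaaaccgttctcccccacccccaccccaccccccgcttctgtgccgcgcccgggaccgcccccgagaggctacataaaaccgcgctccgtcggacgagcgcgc
Dusp5: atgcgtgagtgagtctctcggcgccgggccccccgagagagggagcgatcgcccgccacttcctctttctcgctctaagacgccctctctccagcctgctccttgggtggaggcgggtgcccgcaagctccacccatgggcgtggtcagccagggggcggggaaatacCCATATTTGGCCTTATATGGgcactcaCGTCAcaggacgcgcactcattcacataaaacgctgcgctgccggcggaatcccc
TGACG also occurs inside TGACGTCA, so these matches overlap. The full element was in the Dusp1 promoter alone among 9 genes of the set with a promoter sequence, and in 1.55% of 32851 promoters of the same length. The 9 windows had a GC content of 56.4% (Dusp6) to 70.8% (Spred1). All promoters had a median of 52.4% (quartiles 45.2% and 61.2%), and the shares given here were not matched for GC content. The window that RefSeq's table gives for Dusp16 ends 14435 bases inside the annotated gene; the other 8 windows end at the gene's outer start. TGACG was in 2 of these 8 (Dusp1 and Dusp5, which moved in opposite directions) and in the Dusp16 window, against 17.8% of all promoters. The CArG box was in Dusp5 alone, where 2 matches lie side by side, and in 1.47% of all promoters. CACGTG was in Dusp1 and Dusp2 but not in Spry1 or Dusp6, all of which fell, and in 6.02% of all promoters. Neither the AP-1 motif TGANTCA (6.75% of all promoters) nor the ETS motif CCGGAA (12.0%) had a match in the 9 sequences, which says only that these letters are not in these windows.

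The Sprouty genes diverged. Spry1 (chromosome 3, 37639947 to 37644599, plus strand), which encodes an inhibitor of RAS-ERK signalling induced by that pathway, was the abundant member. It had 3812, 3921 and 3985 in Control and 1491, 1629 and 1569 in Toyocamycin, a fall of 2.5-fold (log2 change −1.32, SE 0.058, adjusted p = 1.5e-14; −0.79 after correction for GC content and length). Spry2 (chromosome 14, 105891947 to 105896819, minus strand), its close relative, had only 91.5, 65.8 and 73.7 in Control. It rose to 294.5, 246.5 and 257.4, or 3.46-fold (log2 change 1.78, SE 0.19, adjusted p = 2.31e-08). The ratio of Spry1 to Spry2 reads fell from 41.7, 59.6 and 54.1 to 5.06, 6.61 and 6.09, so Spry1 still had the larger count in every sample. An unclassified transcript of the opposite strand covers 24.4% of the exonic bases of Spry1, and its reads cannot be told apart from those of Spry1.

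Spred1 (chromosome 2, 117121071 to 117182279, plus strand) encodes a Sprouty-related protein that brings the RAS inactivator neurofibromin to the membrane. It had 470.2, 524.8 and 467.8 in Control and 1362, 1209 and 1292 in Toyocamycin. The rise of 2.64-fold (log2 change 1.40, SE 0.083, adjusted p = 2.43e-12) came with one in Nf1, the neurofibromin gene, from 633.4 ± 114 to 1676 ± 105 (2.65-fold, adjusted p = 4.01e-11). Nf1 was singled out after its values were seen.

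**Figure D2:**
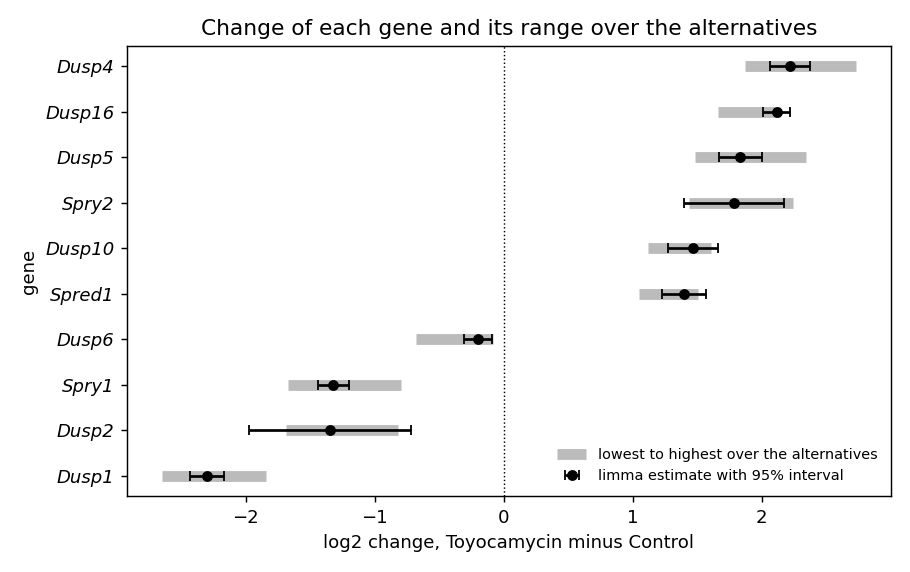
Log2 change of each gene, Toyocamycin minus Control. Black points and whiskers are the limma estimates with 95% intervals, and grey bars run from the lowest to the highest estimate over 16 alternatives of processing. No bar crosses 0; that of Dusp6 comes nearest, at −0.083.

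The directions of all 10 genes held under each of the 16 alternatives, and 159 of the 160 resulting values stayed on the same side of the threshold, the exception being Dusp6. Setting samples to equal totals moved the median log2 change of all genes from −0.03 to −0.36 and the share of calls that were higher from 49.7% to 36.9%. Under that scaling 6 of the genes were still called higher, with log2 changes of 1.05 (Spred1) to 1.87 (Dusp4), and 4 lower. Across 11655 genes the log2 change fell with transcript GC content (Spearman's rho −0.24; genes are not independent replicates). Among the genes of the set, GC content was 54.0% for Dusp1, 59.2% for Dusp2, 56.7% for Spry1 and 49.0% for Dusp6, which fell, and 41.2% (Spred1) to 56.7% (Dusp5) for those that rose. After correction for GC content and length, 6 were called higher and 3 lower, beside 5495 and 4808 of all 15595 genes. The log2 changes of the 3 lower genes were −0.88 for Dusp2 (adjusted p = 0.018, limma), −0.79 for Spry1 (adjusted p = 9.96e-11) and −1.84 for Dusp1. The number of genes past a log2 change of 1 in size then went from 9 to 7, without Dusp2 and Spry1, and with quantile normalization to 8, without Dusp2.

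Together the 10 genes had 19641 ± 279 normalised read counts in Control and 27143 ± 863 in Toyocamycin, a ratio of 1.38 (exact permutation test, two-sided p = 0.1, the smallest that 3 against 3 samples allow). Over all genes the normalised read counts summed to 2.31e+07 to 2.37e+07 in Control and 2.91e+07 to 3.11e+07 in Toyocamycin, so the whole table rose too. With equal totals the difference for the 10 genes shrank from 7501 to 1891. Levels of different genes were compared per kilobase of exonic length. On that scale the order in Control was Dusp6 (1840 ± 21.1), Dusp1 (1483 ± 60.3), Spry1 (1344 ± 30.2), Dusp16 (354.7 ± 11.1), Dusp5 (308.1 ± 29.4), Dusp4 (163.4 ± 7.5), Dusp10 (138.1 ± 7.88), Spred1 (71.9 ± 4.75), Dusp2 (50.4 ± 11.3) and Spry2 (36.9 ± 6.31). Of these neighbours, Dusp2 and Spry2 overlapped between samples. In Toyocamycin the order was Dusp6 (1604 ± 63.6), Dusp16 (1537 ± 54.8), Dusp5 (1100 ± 94.1), Dusp4 (762.9 ± 26.3), Spry1 (537.9 ± 23.9), Dusp10 (383.6 ± 44.4), Dusp1 (300.8 ± 20.8), Spred1 (189.8 ± 11.3), Spry2 (127.5 ± 12.1) and Dusp2 (19.98 ± 6.91). There Dusp6 and Dusp16 overlapped.

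Dusp1 thus went from the second place to the seventh, and Dusp16 from the fourth to the second. As a share of the summed level per kilobase, Dusp1 went from 25.6% ± 0.696 to 4.59% ± 0.337 and Spry1 from 23.2% ± 0.221 to 8.19% ± 0.178. Dusp16 went from 6.13% ± 0.215 to 23.4% ± 0.309, Dusp5 from 5.32% ± 0.47 to 16.7% ± 1.11 and Dusp4 from 2.82% ± 0.149 to 11.6% ± 0.224. Dusp6 held 31.8% ± 0.774 in Control and 24.4% ± 0.779 in Toyocamycin. As shares of plain reads, which need no length, Dusp16 differed by 30.1 percentage points and Dusp1 by −21.3 (Toyocamycin minus Control). The groups did not overlap for any of the 10 shares of reads, which gives each the smallest p of the exact permutation test (0.1, two-sided). Shares are parts of a whole, so a rise in some lowers the others, and these are not 10 separate results. The exonic length of Dusp1 includes annotated exons far upstream of the RefSeq gene, so its level per kilobase may be understated.

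**Figure D3:**
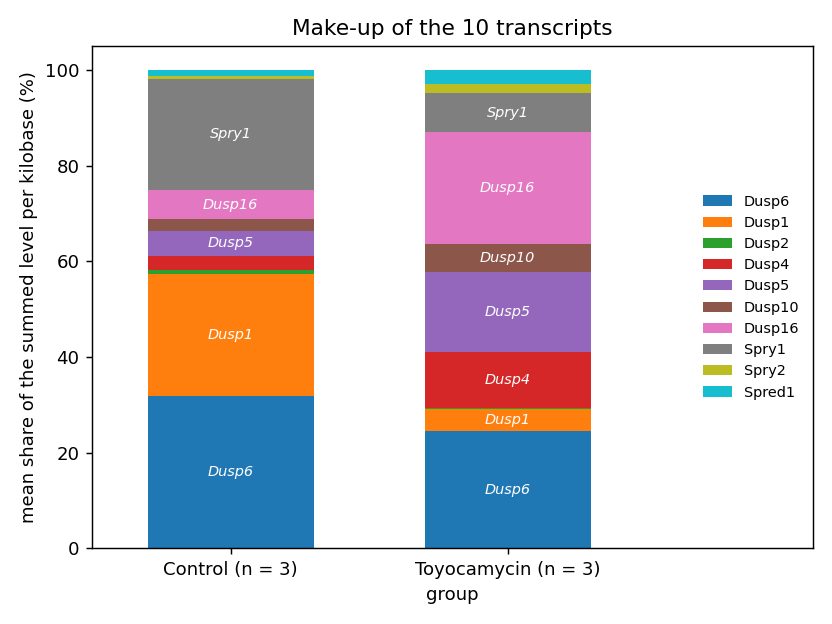
Mean share (%) of each gene in the summed level per kilobase of the 10 genes, in 3 Control and 3 Toyocamycin samples. Dusp6, Dusp1 and Spry1 fill most of the Control bar, and Dusp6, Dusp16, Dusp5 and Dusp4 most of the Toyocamycin bar.

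The other members of these families, from lists chosen with earlier results of the data known, also moved both ways. Of all genes tested, 32.8% were higher and 33.1% lower, so moving both ways is not particular to these families. Of 7 further MAP kinase phosphatase, Sprouty and Spred genes, 6 had enough reads for a test, 3 were higher and 1 lower, and Spry3 had no read in any sample. Spry4 rose 2.26-fold from a low 26.6 ± 3.33 (adjusted p = 0.00533) and Spred2 1.85-fold from 668.4 ± 35 (adjusted p = 3.11e-09). Spred3 fell 3.91-fold, from 389.9 ± 19.5 to 99.7 ± 9.87 (adjusted p = 1.82e-10), so that the Spred family diverged as the Sprouty family did. Dusp8 and Dusp9 did not pass, with log2 changes of 0.37 (SE 0.51) and −0.23 (SE 0.25). Among 14 atypical dual-specificity phosphatases, which lack the kinase-binding domain of the classical ones, 10 could be tested. Of these, 3 were higher (Dusp11, an RNA phosphatase, by 2.53-fold, Dusp12 by 2.52-fold and Dusp14 by 1.86-fold) and 3 lower (Dusp19 by 5.13-fold, Dusp23 by 3.5-fold and Dusp3 by 2.12-fold).

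Genes of the MAP kinase cascades, with RAS and adaptor genes among them, moved both ways as well. In the RAS-RAF-ERK cascade 11 of 20 genes were higher and 6 lower, beside 32.8% and 33.1% of all genes. With equal totals 10 were higher and 9 lower, beside 4040 and 6897 of all 16245 genes tested with that scaling. The median log2 change was 0.41, beside −0.03 over all genes. Sos2, which loads RAS with GTP, rose 3.87-fold and the adaptor gene Gab2 2.46-fold, while Araf fell 3.55-fold, Map2k2 2.54-fold and Mapk3 2.38-fold. Relatives within a tier diverged: the ratio of Map2k1 to Map2k2 reads rose from 0.487 ± 0.0112 to 1.88 ± 0.0774. Mapk3, which encodes ERK1, had 2854, 2596 and 2869 in Control and 1230, 1167 and 1094 in Toyocamycin. Map2k1 was singled out after its values were seen.

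In the JNK and p38 cascade 14 of 18 genes were higher and 2 lower, beside 32.8% and 33.1% of all genes. The median log2 change was 0.61. With equal totals 13 were higher and 3 lower, beside 4040 and 6897 of all 16245 genes. The kinase gene Map3k2 rose 4.5-fold, Map3k1 3.11-fold and Mapk8, which encodes JNK1, 2.98-fold, and Mapk11, which encodes p38 beta, fell 1.89-fold. The other lower gene was Mapk13, with 7.04 ± 4.61 in Control and 0.809 ± 1.4 in Toyocamycin, below the level of 3 reads in each Toyocamycin sample; it did not pass when either replicate 2 or 3 of Control, or either replicate 1 or 2 of Toyocamycin, was left out (adjusted p = 0.0743 to 0.13, limma). Without Toyocamycin replicate 2 the kinase gene Map3k5 was called lower in its place (log2 change −0.17, adjusted p = 0.0229). Among 10 kinases that MAP kinases activate, 2 were higher (Mapkapk5 2.67-fold and Mapkapk2 1.62-fold) and 6 lower, with Rps6ka1 down 2.09-fold, Rps6ka3 1.33-fold and Rps6ka4 1.32-fold. The log2 change of Rps6ka4 turned from −0.40 to 0.12 after correction for GC content and length. That correction gave 4 higher and 3 lower genes in this list, beside 5495 and 4808 of all 15595 genes. Mapkapk3 (log2 change 0.26) and Mknk2 (0.30) turned from called lower to called higher.

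Other inhibitors of RAS and MAP kinases divided, with 7 of 14 higher and 6 lower, beside 32.8% and 33.1% of all genes. Their median log2 change was 0.39. After correction for GC content and length 9 were higher and 4 lower, beside 5495 and 4808 of all 15595 genes. Rasa3 turned from called lower to called higher. The PP2C phosphatase genes Ppm1a and Ppm1b, whose products act on stress-activated kinases, rose 4.06-fold and 3.75-fold, and Rasa1, a RAS inactivator, 3.67-fold. Rasal3, a RAS inactivator of blood cells, fell 3.3-fold from 14642 ± 223, Ptpn7, a tyrosine phosphatase of ERK and p38 in leukocytes, 2.4-fold from 6748 ± 115, and Lztr1 2.11-fold. Of 13 genes used as readouts of ERK activity, 7 were lower and 2 higher (median log2 change −0.60), beside 33.1% and 32.8% of all genes. The number lower ran from 5 to 7 with a sample left out. It was 4 after correction for GC content and length, with which Etv4, Egr2 and Egr3 no longer passed. Egr1 fell 20.8-fold, from 19934, 20776 and 21525 to 956.1, 1046 and 995.7, Fos 6.26-fold and Ier3 2.46-fold. Etv5 (log2 change 0.34) and Myc (0.26) were called higher, but with equal totals their log2 changes were −0.0057 and −0.089, and with quantile normalization Myc was called lower (−0.24).

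**Figure D4:**
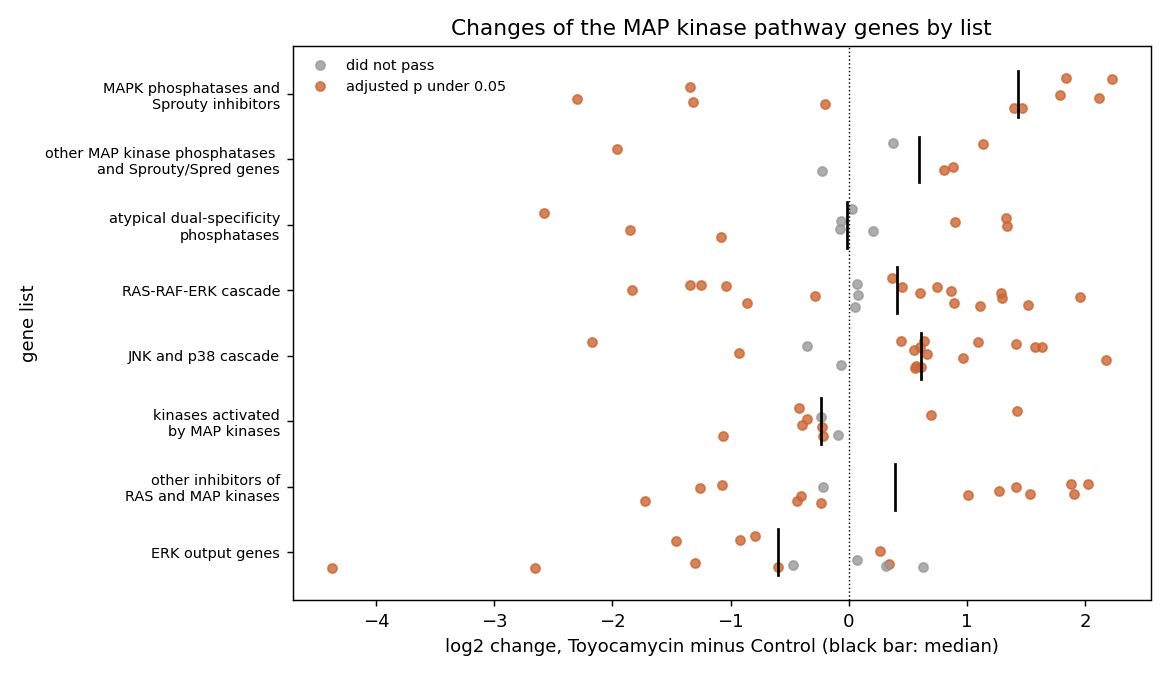
Log2 change, Toyocamycin minus Control, of every tested gene in 8 lists of the MAP kinase pathway. Points are genes, coloured by whether they passed at an adjusted p under 0.05, and black bars are list medians, from −0.60 for ERK output genes to 1.43 for the 10 phosphatase and Sprouty genes.

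Among 9905 other genes with a mean of at least 100, the gene nearest to each of the set was sought by the Euclidean distance between centred log2 values over the 6 samples. Tab3 was nearest to Dusp4 (distance 0.0745), Pkn2 to Dusp16 (0.0567), Ints6 to Dusp1 (0.078), Lamtor1 to Spry1 (0.0482) and Mat2a to Dusp6 (0.0427). Matches were loosest for Dusp2 (Slc41a3, 0.297) and Spry2 (Npnt, 0.257). With 2 groups of 3 samples, such a distance depends largely on the log2 change between the groups. Ints6 had −2.33 beside −2.30 for Dusp1, and Pkn2 had 2.12, as did Dusp16. Shared regulation was not tested. Within a wider distance of 0.5 lay 319 genes for Dusp4, 293 for Dusp1 and 1986 for Dusp6. Within the set the closest pair was Dusp4 and Dusp16 (0.213).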

How the data were processed

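RNA sequencing of 3 Control and 3 Toyocamycin samples was used. Per the submitters' processing notes, cutadapt 4.7, FastQC and the mouse build mm10 were used by the authors; libraries followed standard Illumina protocols, per the labels. For the aligner, counter, strand setting and annotation, nothing is given in the sources used here. Although the file name says FPKM, the authors' deposited values are a normalised signal: in each sample 100% of the deposited values are whole multiples of 1 read (tolerance 0.01 reads), with size factors of 0.757 to 1.18. Recovered totals ran from 25.5 M to 27.0 M reads in Control and from 22.3 M to 36.7 M in Toyocamycin. The design allowed for FPKM or counts; the values were tested as log2(value + 1) with limma 3.58.1 (R 4.3.3, mean-variance trend, two-sided) and Benjamini-Hochberg adjustment over the 16223 genes whose mean reached 1. A pseudocount of 1 makes a log2 change understate that of genes with few reads. Folds are ratios of group means.

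No pair of replicates agreed within sampling noise (chi-square over degrees of freedom from 3.96 to 7.76). All 6 samples were kept, and no rule for leaving out a sample was set on this value. Exonic lengths and GC content are from GENCODE, coordinates and promoters from RefSeq, both on GRCm38 (mm10). The count tests edgeR 4.0.16 and DESeq2 1.42.0 on recovered reads were alternatives. The limma step was tested on simulated counts. The genes of the set and all lists were chosen with earlier results of these data known. All 10 genes were named; from each other list up to 3 called genes per direction with the largest change and a mean of at least 20 were named, with exceptions stated. Some results for single genes of the lists are not reported here.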

Additional observations from a re-analysis of the deposited data

How the results depend on the processing

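The log2 change of every gene of the set kept its direction under 2 other pseudocounts, 2 other filters, 2 other scalings, edgeR, DESeq2, the replicate block, leaving out each of 6 samples, and a correction for GC content and length that was added after seeing the data. The call of Dusp6 ended under that correction (log2 change −0.083), which also gave 4 higher and 3 lower kinases activated by MAP kinases (2 and 6 reported), 4 lower ERK output genes (7 reported), 1 lower JNK and p38 gene (2 reported) and turned Rps6ka4 to 0.12. The number of lower JNK and p38 genes was also 1 with a mean of at least 10, with edgeR and with DESeq2, and ran from 1 to 2 with a sample left out. With quantile normalization 5 atypical phosphatases (3 reported) and 1 ERK output gene (2 reported) were higher, and Myc had a log2 change of −0.24. With equal totals 0 ERK output genes were higher in the limma test, and 0 also at an unadjusted p under 0.05. At their own scaling, edgeR gave 2 and DESeq2 gave 2. With equal totals Etv5 had a log2 change of −0.0057 and Myc −0.089. That scaling moved the median log2 change of all genes from −0.03 to −0.36. Why the totals differ between the groups was not tested. Same-numbered Control and Toyocamycin samples did not deviate together (correlations −0.033, 0.041 and −0.11, beside −0.197 to 0.184 for other pairs). With 3 samples per group this cannot settle whether the numbers pair the samples. With the replicate number as a block, 5272 genes were higher and 5298 lower (5316 and 5374 without it), with 6 and 4 of the set. Depth limits Dusp2 most, with 29 to 45 reads in Toyocamycin samples.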
